A study of Mus musculus with 12 samples.

Results

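The 45 genes described here encode the Wnt ligands, their receptors and co-receptors, the planar polarity proteins, the Dishevelled proteins and Cfap126, out of 21757 protein-coding genes of the mouse annotation. They were chosen by name and not by a threshold on a measured value, but with earlier results of these data known. They comprise 19 ligand genes, 10 Frizzled receptor genes and 5 co-receptor genes (Lrp5, Lrp6, Ror1, Ror2 and Ryk). The others are 7 planar polarity genes (Vangl1, Vangl2, Celsr1, Celsr2, Celsr3, Prickle1 and Prickle2), 3 Dishevelled genes and Cfap126. A window of the gene body plus 20 kb on each side held 295 of the 87689 hypomethylated regions (HMRs, stretches of CpGs with little methylation) of the series, and 28 of the 295 lay in more than 1 of these windows. HMRs of the 4 pools described below were merged where they overlapped.

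DNA methylation was measured by tagmentation-based whole genome bisulfite sequencing (WGBS) in sorted beta cells of mice of the genotype Myt1cCre; Ngn3nCre; Rosa26eYFP, InsApple. Each Cre gene makes a part of the recombinase, under Myt1 and Ngn3 (Neurog3), so that eYFP permanently marks cells in which both parts were made together, and Apple marks cells that use the insulin promoter. The 4 groups were P2 eYFP- (2 libraries), P2 eYFP+ (2 libraries), P60 eYFP- (4 libraries) and P60 eYFP+ (4 libraries), taken at postnatal days 2 and 60 from females and males. All groups share the 4 alleles, and each library combined sorted cells of several batches of pooled mice, so that a library is not an animal. The labels name the reporter eGFP, give the cell type as all islet cells and list no untreated or wild-type group.

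Wnt proteins are secreted, lipid-modified ligands that bind Frizzled receptors. Together with Lrp5 or Lrp6 they lead through Dishevelled to the stabilization of beta-catenin, and together with Ror1, Ror2 or Ryk, or through the Vangl, Celsr and Prickle proteins, to the alignment and movement of cells known as planar cell polarity. In islets these routes are known for roles in beta-cell proliferation and maturation, Wnt4 is a ligand of mature beta cells, and Cfap126 (Flattop), a cilium-associated protein, has been used to mark mature beta cells.

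Read counts per CpG were deposited for 1 pool per group, with medians of 25 reads per CpG in both P2 pools and of 44 (eYFP-) and 45 (eYFP+) in the P60 pools. A methylation level is the percent of methylated reads among all reads on the CpGs of a region, with its 95% Wilson interval, which covers counting error only since PCR copies are not independent molecules. Tests on pooled reads (two-sided Fisher's exact test, Benjamini-Hochberg adjustment over all regions of a kind) compare pools and not mice. A region was called where the adjusted p was under 0.05 and the levels differed by at least 10 percentage points. Positions of HMRs were the values deposited per library. The pools taken as eYFP- and eYFP+ carry other names in the deposited counts: HMR stretches found in 1 pool were overlapped by 36.5% to 66.1% in libraries of the same subtype and by 14.1% to 24.9% in libraries of the other. Of 254 X-chromosomal HMRs found in every P60 library labelled male and in none labelled female, 92.5% were present in the P2 eYFP- library labelled female and 13.4% in the one labelled male, against those labels. In the P2 eYFP+ libraries 13.0% were present in that labelled female and 84.3% in that labelled male. The genes described here are all autosomal. Stage cannot be told apart from library submission, since, by the prefixes of the library names, the P2 libraries share 1 prefix and the P60 libraries carry 2 others. Windows of 500 bp either side of the transcription start site (TSS) of 10 beta cell genes had median levels of 9.69% and 9.56% at P2 and of 3.45% and 3.91% at P60 (eYFP- and eYFP+), and those of 4 immune genes had medians between 73.1% and 80.7%. Medians lay between 67.8% and 73.6% for 4 endothelial genes, between 59.8% and 68.4% for 6 acinar genes, between 35.0% and 40.8% for 6 genes of other endocrine cells, between 8.27% and 12.7% for 4 stromal genes, and for 4 duct genes at 12.1% and 11.0% at P2 and 29.2% and 27.3% at P60, and the part of such cells in the results was not tested. A level is a mean over all sorted cells, so that a change in every cell and a change in the share of cells cannot be told apart.

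The sequences below are the central 200 bases of the 2 HMRs called between subtypes and of 4 of the HMRs with the largest differences between stages, on the forward strand of mm39, with each CpG in capitals. They show the density of CpGs at the middle of these regions. None of the 6 holds the TCF/LEF motif CTTTGAT or the FOXA motif TGTTTAC on either strand.
Ror2, chr13:53401256-53401455: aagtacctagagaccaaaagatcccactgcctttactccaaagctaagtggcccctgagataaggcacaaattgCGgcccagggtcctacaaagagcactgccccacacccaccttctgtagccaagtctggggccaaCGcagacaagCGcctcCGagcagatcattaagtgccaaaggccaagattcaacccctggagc
Wnt6 and Wnt10a, chr1:74826919-74827118: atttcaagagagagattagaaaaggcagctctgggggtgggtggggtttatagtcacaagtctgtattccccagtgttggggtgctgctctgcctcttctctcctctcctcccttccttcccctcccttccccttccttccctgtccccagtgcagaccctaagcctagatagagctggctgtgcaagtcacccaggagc
Ror1, chr4:100247986-100248185: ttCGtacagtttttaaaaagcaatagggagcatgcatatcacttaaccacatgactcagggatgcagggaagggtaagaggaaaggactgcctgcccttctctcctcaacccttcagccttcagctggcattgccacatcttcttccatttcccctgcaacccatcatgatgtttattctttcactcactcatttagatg
Prickle1, chr15:93427872-93428071: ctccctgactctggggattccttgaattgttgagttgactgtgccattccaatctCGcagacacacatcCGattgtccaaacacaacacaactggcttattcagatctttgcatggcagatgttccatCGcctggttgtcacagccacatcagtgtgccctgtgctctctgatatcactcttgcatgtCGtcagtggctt
Vangl1, chr3:102101043-102101242: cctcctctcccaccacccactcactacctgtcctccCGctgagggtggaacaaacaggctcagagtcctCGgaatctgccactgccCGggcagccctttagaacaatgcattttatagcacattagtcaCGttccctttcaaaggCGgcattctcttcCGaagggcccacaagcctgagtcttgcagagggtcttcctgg
Lrp5, chr19:3687162-3687361: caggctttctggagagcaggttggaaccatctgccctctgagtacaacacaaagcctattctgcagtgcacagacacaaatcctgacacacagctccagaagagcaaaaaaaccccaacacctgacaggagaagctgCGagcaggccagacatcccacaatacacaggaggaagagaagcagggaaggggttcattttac
The windows of Prickle1 and Ror2 hold 4 CpGs each, that of Vangl1 holds 6, those of Ror1 and Lrp5 hold 1 each, and that between Wnt6 and Wnt10a holds 0, its 9 CpGs lying nearer the ends of the HMR. As a description, CTTTGAT was found in the central 200 bases of 0 of the 94 HMRs that were higher at P60 in both subtypes, of 2 of the 179 that were higher in neither (1.12%) and of 2.95% of all merged HMRs, and TGTTTAC in 8 of 94 (8.51%), 5 of 179 (2.79%) and 5.58%, respectively.

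Promoters of the receptors were nearly unmethylated in beta cells of both subtypes and both stages. The level of the TSS window was below 5% in all 4 pools in 36 of the 45 genes and below 10% in 39, beside 47.7% and 57.3% of 20396 protein-coding genes. All 10 Frizzled genes lay between 0.305% and 1.37%, the 5 co-receptor genes between 0.338% and 3.75%, and the 3 Dishevelled genes, whose products carry the signal inside the cell, between 0.727% and 3.52%. Wnt4 was also unmethylated at its TSS, with 2.83% and 3.10% at P2 and 3.82% and 3.02% at P60 (eYFP- and eYFP+).

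**Figure D1:**
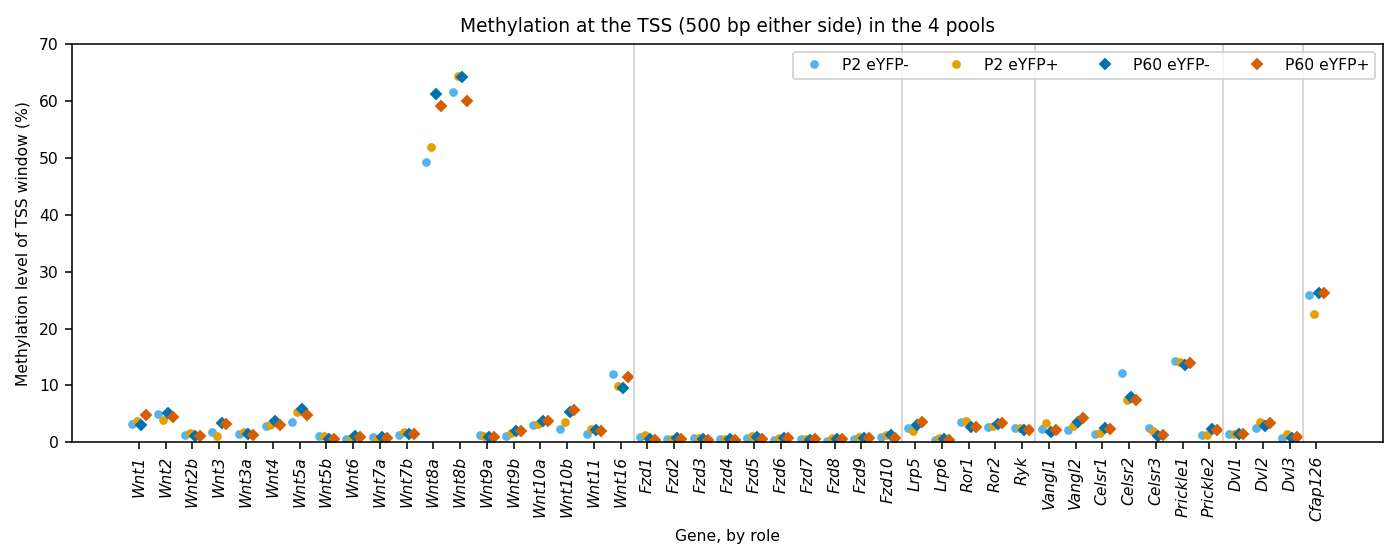
Methylation level (y axis, %) of the window 500 bp either side of the TSS of the 45 genes (x axis, ordered by role, grey lines between roles) in the 4 pools, 1 point per pool. All genes but Wnt8a, Wnt8b and Cfap126 lie below 15%, and the 10 Frizzled genes at 1.37% or below.

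The 6 genes that were not below 10% in all 4 pools were the ligand genes Wnt8a, Wnt8b and Wnt16, the planar polarity genes Prickle1 and Celsr2, and Cfap126. Wnt8b had levels of 61.6% (57.1 to 65.9) and 64.3% (59.8 to 68.6) at P2 and of 64.1% (61.3 to 66.9) and 59.9% (56.7 to 63.0) at P60 in eYFP- and eYFP+ cells, over 21 CpGs. Wnt8a was at 49.3% (44.1 to 54.5) and 51.9% (46.8 to 57.0) at P2 and at 61.2% (57.6 to 64.7) and 59.1% (55.7 to 62.5) at P60, over 16 CpGs. No HMR overlapped the TSS window of Wnt8b in any of the 12 libraries, and 1 of the 12 had an HMR at that of Wnt8a. Cfap126 was intermediate, at 25.9% (23.3 to 28.7) and 22.5% (19.8 to 25.4) at P2 and 26.2% (24.5 to 28.0) and 26.2% (24.4 to 28.2) at P60, and its pools did not differ beyond their intervals. Among planar polarity genes, Prickle1, a cytoplasmic partner of Vangl proteins, lay between 13.6% and 14.4%, and Celsr2, an adhesion receptor of the cadherin family, between 7.43% and 12.1%. Wnt16 lay between 9.63% and 12.1%.

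No TSS window of the 45 genes was called between eYFP+ and eYFP- cells at either stage. At P2, 0 of 45 were called beside 0.206% of all 20399 windows tested, 1 had an adjusted p under 0.05 and 4 an unadjusted p under 0.05. That one was Celsr2, at 12.1% in eYFP- and 7.46% in eYFP+ cells, a difference of 4.64 points (adjusted p = 0.00093, Fisher's exact test), which is below the 10 points a call needs. At P60, 0 of 45 were called beside 0.0926% of all windows, 1 had an adjusted and 4 an unadjusted p under 0.05, and the largest difference was 4.23 points, at Wnt8b. Between stages, 1 of 45 was called in eYFP- cells beside 5.71% of all windows, and 0 of 45 in eYFP+ cells beside 7.05% (5 had an adjusted and 15 an unadjusted p under 0.05). The called window was that of Wnt8a, 11.9 points higher at P60 in eYFP- cells (Fisher's exact test, adjusted p = 0.00278) and 7.21 points higher in eYFP+ cells (adjusted p = 0.0908). The Wnt8a call was lost with windows of 1000 bp either side of the TSS.

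Away from promoters, subtype differences were few. At P2, 2 of the 294 HMRs tested (0.68%) were called, 1 in each direction, beside 1.34% of all HMRs, and 52 had an unadjusted p under 0.05. At P60, 0 of 295 were called beside 0.743% of all HMRs, with 5 at an adjusted and 46 at an unadjusted p under 0.05. Counts by p alone, here and for the TSS windows, were made for these genes only. No share of all regions stands beside them, so they are not a result about these genes. HMRs enter the list because at least 1 pool is low there, so that regions low in all pools and regions low in 1 pool are both present by construction.

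**Figure D2:**
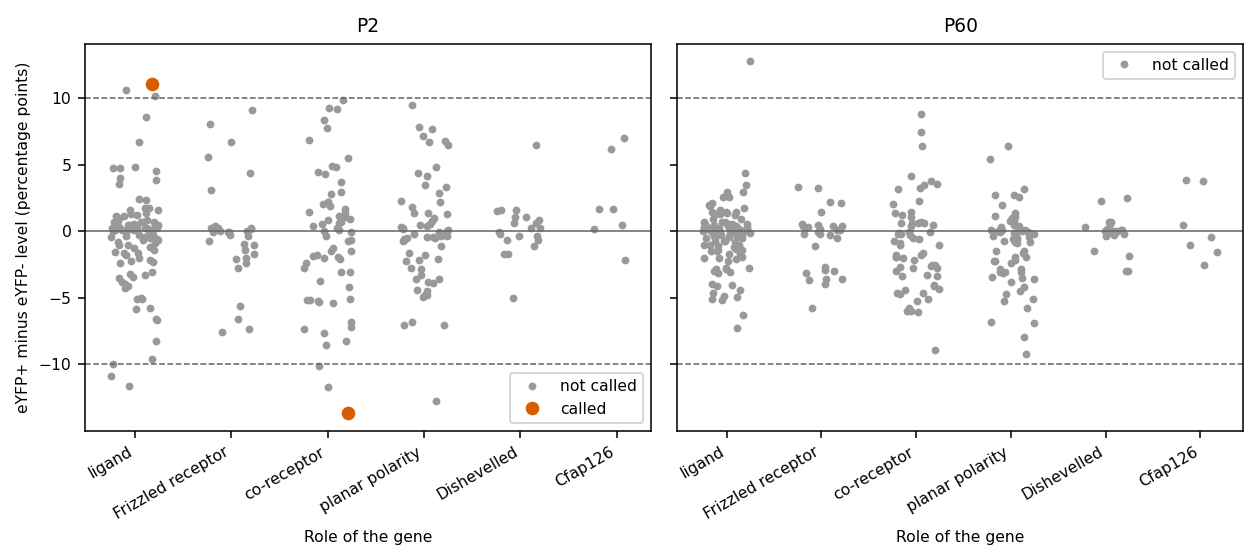
Difference in methylation level (y axis, eYFP+ minus eYFP-, percentage points) of the HMRs in the windows of the 45 genes at P2 (left) and P60 (right), grouped by the role of the gene (x axis, points spread sideways at random), with dashed lines at 10 points. The called HMRs at P2 are those of Ror2 at -13.7 points and of Wnt6 and Wnt10a at 11.0 points, and no HMR was called at P60.

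Ror2 encodes a receptor tyrosine kinase-like co-receptor of Wnt5a, and the called HMR lies in its intron 1 at chr13:53401027-53401685, 38804 bp from the TSS. Its level at P2 was 32.7% (27.8 to 38.1, 315 reads) in eYFP- and 19.0% (15.3 to 23.5, 352 reads) in eYFP+ cells, 13.7 points lower in eYFP+ cells (Fisher's exact test, adjusted p = 0.00793). Of its 12 CpGs, 10 were lower and 2 higher in eYFP+ cells. Both P2 eYFP+ libraries and neither P2 eYFP- library had an HMR there, but the P2 pools combine these same libraries. The 4 CpGs in capitals in the Ror2 sequence had, in the order printed, 37.9%, 9.09%, 20% and 25.0% methylated reads in P2 eYFP- cells and 13.6%, 6.06%, 22.2% and 16.2% in P2 eYFP+ cells, from 16 to 37 reads each. At P60 the HMR was no longer low in either subtype, at 56.9% (53.3 to 60.5) and 60.5% (56.6 to 64.2), and 0 of the 8 P60 libraries had an HMR there. The P60 levels of the subtypes differed by 3.56 points (Fisher's exact test, adjusted p = 0.605). The gain from P2 to P60 was 24.2 points in eYFP- and 41.4 points in eYFP+ cells, and these gains differed by 17.2 points, with an adjusted p of 0.0103 in a test of homogeneity of odds ratios on the pooled reads, which is approximate and not an exact test. This was the 1 called of 294 HMRs tested for such a difference, beside 0.678% of all HMRs. An unadjusted p under 0.05 was found at 42, a count made for these genes only. Of the P2 pools, only eYFP+ had this Ror2 HMR, so the region entered the list through its low P2 eYFP+ level. The same P2 reads enter the subtype call, the difference in gains and the HMRs of the P2 libraries, so none of these is independent of that choice.

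The HMR between Wnt6 and Wnt10a, neighbouring genes of secreted ligands, lies at chr1:74826651-74827387, 2044 bp downstream of Wnt6 and 3656 bp upstream of Wnt10a. Its level at P2 was 6.94% (4.38 to 10.8, 245 reads) in eYFP- and 17.9% (13.6 to 23.4, 234 reads) in eYFP+ cells, 11.0 points higher in eYFP+ cells (Fisher's exact test, adjusted p = 0.0201). The difference came mostly from CpGs at the edges: the last CpG had 6 methylated of 35 reads in eYFP- and 19 of 35 in eYFP+ cells, and the CpG at position 2 had 8 of 30 and 13 of 29. All 4 P2 libraries had an HMR there. With the mean of the levels of single CpGs the difference was 8.91 points and was not called. At P60 the levels were 10.7% (8.57 to 13.2) and 11.6% (9.29 to 14.3), and 3 of 4 eYFP- and 4 of 4 eYFP+ libraries had an HMR there.

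Another 8 HMRs differed by at least 10 points between the P2 subtypes without being called. The one nearest to a call was 7192 bp downstream of Wnt4, at chr4:137033919-137034539, with 31.6% (26.4 to 37.4) in eYFP- and 20% (15.9 to 24.9) in eYFP+ cells (Fisher's exact test, adjusted p = 0.0575). At P60 its levels were 50.2% (46.5 to 53.9) and 46.3% (42.8 to 49.7). At P60, the largest subtype difference was 14321 bp downstream of Wnt16, where an HMR of 5 CpGs had 24.8% in eYFP- and 37.5% in eYFP+ cells (Fisher's exact test, adjusted p = 0.0583).

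The P2 subtype differences were followed to P60 in stretches that were HMR in 1 P2 pool only, a choice made on the P2 reads. Stretches of at least 50 bp and 3 CpGs that differed by at least 10 points numbered 30 in the windows of 23 genes, 10 lower in eYFP- and 20 lower in eYFP+ cells, beside 3199 and 3729 in all. On the P60 reads, 0 of 30 were called in the P2 direction beside 1.02% of all 6928 stretches, and 1 had an unadjusted p under 0.05. That was a stretch downstream of Lrp6, a co-receptor of the beta-catenin route, 12.5 points lower in eYFP+ cells at P2 and 14.2 points higher at P60. The median P60 difference in the P2 direction was 0.589 points (0.890 points over all stretches), and 18 of 30 kept their direction (60%, and 56.7% of all). Ror2 held 4 of the stretches, all lower in eYFP+ cells at P2, and these include the called HMR of intron 1 described above. At P60 the differences (eYFP+ minus eYFP-) were 3.56 points there and -5.60, -3.70 and 1.75 points at the others.

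From P2 to P60, HMRs of these genes gained methylation. In eYFP- cells 107 of 294 were called higher at P60 (36.4%, beside 28.0% of all HMRs) and 2 lower (3.0% of all HMRs were lower). In eYFP+ cells 103 of 294 were higher (35.0%, beside 26.6%) and 2 lower (3.95% of all). The median change was 4.84 points in eYFP- and 4.92 points in eYFP+ cells, beside 2.92 and 2.38 points over all HMRs. Of the 294 HMRs, 94 were higher in both subtypes (32.0%, beside 22.9% of all HMRs), in windows of 36 of the 45 genes (80%, beside 47.6% of all genes with an HMR in the window). A window of the 45 held a median of 6 HMRs, beside 4 over all such genes. The genes with no HMR called higher in either subtype were Wnt2, Wnt11, Fzd1, Fzd4, Fzd8, Fzd10 and Dvl3. Since HMRs were called on the same pooled reads, a region that was an HMR at P2 alone was low at P2 by choice. P2 libraries had 57109 to 60950 HMRs and P60 libraries 38052 to 49939.

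**Figure D3:**
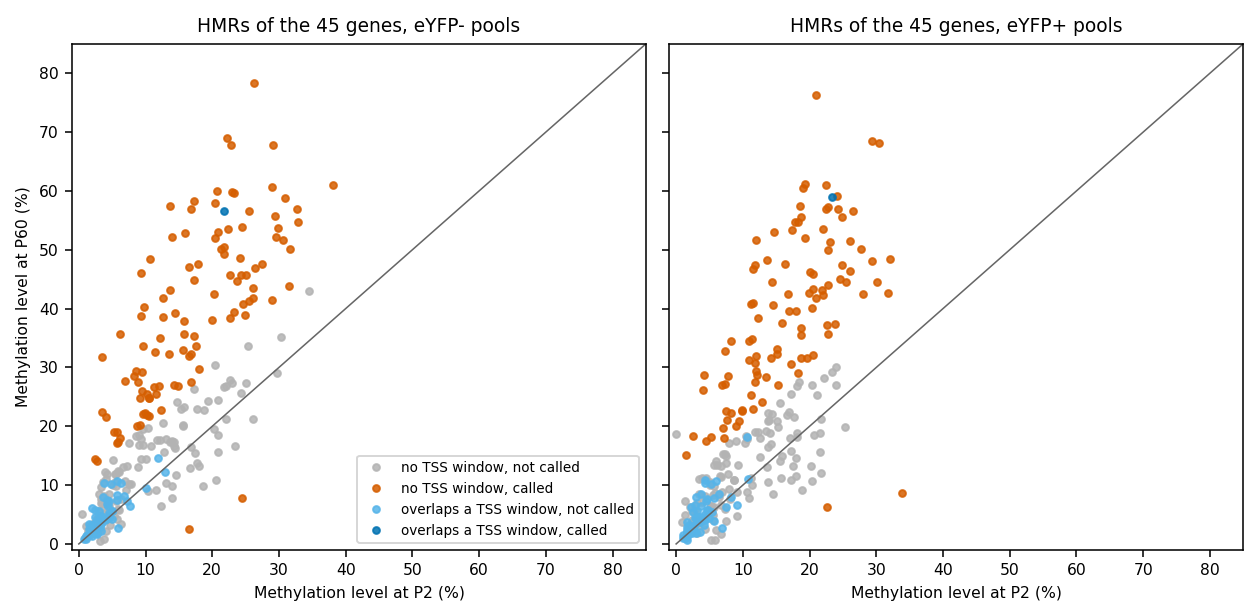
Methylation level at P2 (x axis, %) and P60 (y axis, %) of the HMRs in the windows of the 45 genes, in eYFP- pools (left) and eYFP+ pools (right), with the line of equal levels. The 64 HMRs that overlap a TSS window (blue) stay near the line except 1, while 106 (left) and 102 (right) of the others lie above it as called gains (orange), and 2 called HMRs in each of the plots lie under it as losses.

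The gains lay outside promoters. Of the 64 HMRs that overlap the TSS window of any gene, 1 was higher at P60 in each subtype (1.56%, beside 3.77% of all such HMRs in eYFP- and 3.54% in eYFP+ cells), and it overlaps the TSS window of Mxra8, a neighbour of Dvl1. Of the HMRs without a TSS, 106 of 230 were higher in eYFP- cells (46.1%, beside 32.7%) and 102 of 230 in eYFP+ cells (44.3%, beside 31.1%). By role, the share called higher in eYFP- cells was 52.4% for the planar polarity genes (33 of 63), 47.7% for the co-receptors (31 of 65), 28.0% for the ligands (30 of 107), 23.8% for the Dishevelled genes (5 of 21) and 22.6% for the Frizzled receptors (7 of 31), beside 28.0% of all HMRs. In eYFP+ cells these shares were 46.0%, 47.7%, 27.1%, 23.8% and 25.8%, beside 26.6% of all HMRs. The HMRs of these roles also differed in density, with medians of 2.44, 2.42, 3.00, 4.80 and 3.46 CpGs per 100 bp in the same order. The part of density or of promoter HMRs in the shares by role was not tested. The 94 HMRs higher in both subtypes had a median of 2.38 CpGs per 100 bp and a median length of 468 bp, and the 179 higher in neither had 3.47 CpGs per 100 bp and 919 bp.

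The positions of HMRs in single libraries gave a replicated measure. Of the 295 HMRs, 22 (7.46%) were present in all 4 P2 libraries and in 0 of the 8 P60 libraries, beside 5.27% of all HMRs, and 136 (46.1%) were present in every library, beside 35.2%. The 22 lay in the windows of 18 genes, 3 of them at Celsr3 and 2 each at Ror2, Lrp5 and Prickle1. HMRs covered 6.94%, 7.10%, 7.55% and 7.08% of the merged windows in the P2 libraries and between 5.32% and 5.64% (median 5.47%) in the P60 libraries. The P2 and P60 libraries did not overlap, with means of 7.17% ± 0.267 (SD, n = 4) and 5.47% ± 0.0961 (SD, n = 8), a difference of -1.70 points (exact permutation test over libraries, two-sided p = 0.00404, the smallest this design allows). With same-numbered eYFP- and eYFP+ libraries averaged, the difference was the same -1.70 points and the exact permutation p was 0.133, the smallest that 2 against 4 sets allow. Windows of all protein-coding genes went from 3.33% ± 0.0750 to 2.68% ± 0.0486. This was a difference of -0.651 points, with the same exact permutation p of 0.00404. The p therefore does not set the genes described here apart from all genes. Whether their fall was larger relative to the starting coverage was not tested. P60 eYFP- and eYFP+ libraries had means of 5.43% and 5.51% (exact permutation p = 0.314).

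Among the ligands, the largest stage difference for a single HMR was at Wnt8a, at an HMR 13081 bp downstream, with 20.9% and 17.8% at P2 and 53.0% and 54.7% at P60 (eYFP- and eYFP+, adjusted p of 1.07e-17 and 5.16e-21). Wnt8b had an HMR 5114 bp downstream, at 17.9% and 28.0% at P2 and 47.6% and 42.6% at P60. Wnt7a, a ligand of both the beta-catenin and planar polarity routes, had an HMR downstream that went from 6.15% and 10.9% to 35.7% and 31.3%. Wnt4 had 3 HMRs called higher in at least 1 subtype: in intron 1 at chr4:137010219-137010549 from 26.3% (21.0 to 32.5) and 22.8% (17.6 to 29.0) to 46.8% (42.6 to 51.1) and 44.0% (40.1 to 48.0), at the region 7192 bp downstream given above, and directly beyond it at chr4:137034555-137036107 from 14.9% and 15.6% to 26.8% and 24.0%. The last of these was called in eYFP- cells (11.9 points) and not in eYFP+ cells (8.44 points). Its HMR at the TSS, of 206 CpGs, stayed at 3.91% and 4.12% at P2 and 4.13% and 3.13% at P60. Wnt5a, the classical ligand of planar polarity, gained 15.9 and 26.0 points at an HMR 2720 bp upstream, which had 25.5% and 14.6% at P2 and 41.4% and 40.6% at P60. The HMR with the largest change at each of Wnt1, Wnt2b, Wnt3, Wnt3a, Wnt5b, Wnt6, Wnt7b, Wnt9a, Wnt9b, Wnt10a, Wnt10b and Wnt16 ended between 17.5% and 54.7% at P60. Wnt1 and Wnt10b, which are neighbours, share that HMR, at chr15:98677850-98679246, of 41 CpGs and with 26.1% and 21.9% at P2 and 43.5% and 43.1% at P60. Wnt3 and Wnt3a were called in eYFP+ cells and not in eYFP- cells, with gains of 13.0 and 9.99 points at Wnt3 and of 11.5 and 7.62 points at Wnt3a, and the difference between subtypes was not called at either.

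Among the Frizzled receptors, Fzd5 stood out for depth: an HMR of 36 CpGs in its coding exon at chr1:64773986-64774414, 2734 bp from the TSS, rose from 14.0% (11.8 to 16.5, 821 reads) and 11.99% (9.78 to 14.6, 692 reads) at P2 to 52.2% (50.2 to 54.2, 2362 reads) and 51.7% (49.7 to 53.8, 2301 reads) at P60. All 4 P2 libraries and none of the 8 P60 libraries had an HMR there, and the adjusted p was 2.41e-86 in eYFP- and 5.64e-83 in eYFP+ cells. Fzd3, a receptor of the planar polarity route, showed the same library pattern in its coding exon 7 (chr14:65440199-65440361), with 9.25% and 13.7% at P2 and 46.1% and 48.2% at P60. An HMR downstream of Fzd9 went from 29.4% and 22.8% to 55.8% and 50%. The largest changes at Fzd2, Fzd6 and Fzd7 were gains between 11.2 and 18.7 points.

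The co-receptors held the largest gain of all. Ror1, like Ror2 a receptor tyrosine kinase-like protein, had an HMR of 6 CpGs in intron 4 at chr4:100247939-100248232 that went from 26.3% (19.96 to 33.8, 152 reads) and 20.9% (15.5 to 27.6, 172 reads) to 78.4% (72.6 to 83.2, 231 reads) and 76.4% (71.0 to 81.0, 271 reads). All 6 CpGs rose in both subtypes (adjusted p of 6.56e-23 and 1.50e-29), although no single library had an HMR there at P2. A further HMR in intron 1 of Ror1 (chr4:100009933-100010470) rose by 38.5 points in eYFP+ cells, and its gain was not called as different between subtypes. Lrp5, the co-receptor of Frizzled in the beta-catenin route, rose in intron 5 (chr19:3686932-3687591) from 13.6% (10.5 to 17.4) and 17.3% (13.6 to 21.7) to 57.5% (54.0 to 60.9) and 53.3% (49.9 to 56.8), with an HMR in all 4 P2 and none of the 8 P60 libraries, and in intron 12 (chr19:3661839-3662064) from 25.5% and 18.7% to 56.6% and 55.6%. Its paralog Lrp6 rose in intron 3 from 9.79% and 11.2% to 40.2% and 40.8%. Ryk, a pseudokinase receptor, rose in intron 2 (chr9:102741306-102741760) from 29.2% and 29.4% to 67.9% and 68.5%.

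Ror2 had the most HMRs in its window and the most called. Of its 20 HMRs, 12 were higher at P60 in each subtype (60%, beside 28.0% and 26.6% of all HMRs) and 11 in both. By share it was not first. In eYFP- cells Wnt4 (3 of 4, 75%), Wnt8a (4 of 6, 66.7%), Vangl1 (66.7%) and Celsr1 (64.3%) were above it, and Wnt7a was equal at 60%. In eYFP+ cells Wnt8a (4 of 6, 66.7%) was above it. There Wnt5a, Wnt7a and Fzd9 were equal at 60%, and Wnt4 was at 50%. The called HMRs of Ror2 ran along the gene from 12448 bp upstream into intron 4, while the HMR at the TSS stayed low. At chr13:53334107-53334268, the level went from 10.6% and 19.9% to 48.4% and 42.7%.

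**Figure D4:**
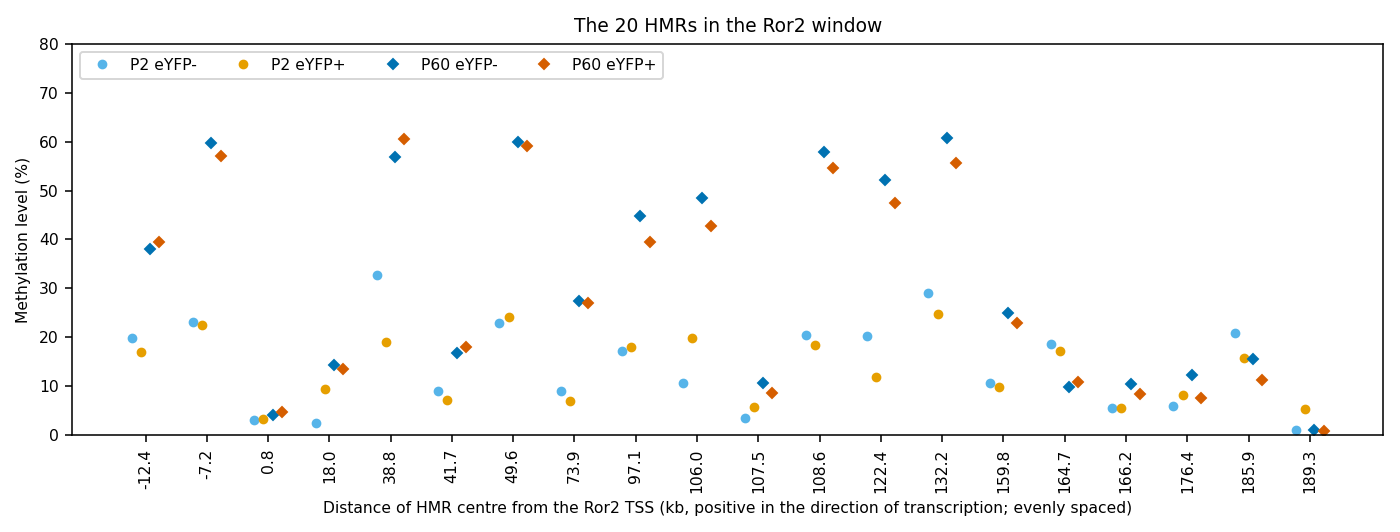
Methylation level (y axis, %) of the 20 HMRs in the Ror2 window, in order of the distance of their centre from the TSS (x axis, kb, evenly spaced), 1 point per pool. The P60 pools (diamonds) lie above the P2 pools (circles) at most HMRs, and the HMR at 38.8 kb is where the P2 pools differ most, at 32.7% and 19.0%.

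The 7 planar polarity genes had 6 to 14 HMRs each in their windows, and each of the 7 had an HMR higher at P60 in both subtypes, beside 79.4% of all genes with at least 6 HMRs. Prickle1 rose in intron 1 (chr15:93427629-93428315) from 22.1% (17.6 to 27.5) and 19.4% (15.3 to 24.1) to 69.1% (64.8 to 73.0) and 61.1% (56.9 to 65.2), at all 10 CpGs in both subtypes, and the HMR was present in all 4 P2 and none of the 8 P60 libraries. Vangl1, a membrane protein at the core of planar polarity, rose in intron 2 (chr3:102100889-102101397) from 22.8% (18.8 to 27.4) and 30.5% (25.9 to 35.4) to 67.8% (64.6 to 70.9) and 68.2% (64.9 to 71.2), at all 14 CpGs. At an HMR downstream of Vangl1 (chr3:102042858-102043250) the level went from 27.4% and 14.7% to 47.6% and 53.1%, a gain of 38.4 points in eYFP+ cells. Of the P2 pools only eYFP+ had this downstream HMR, and no single library had it. Vangl2, the paralog of Vangl1, rose in intron 1 from 17.2% and 18.5% to 58.2% and 57.4%, at an HMR of 174 bp and 6 CpGs that no single library had. Celsr1 gained at 9 of 14 HMRs in eYFP- and 8 of 14 in eYFP+ cells (64.3% and 57.1%, beside 28.0% and 26.6% of all HMRs). Its largest gain was at chr15:85794031-85794606 in intron 24, from 16.8% and 16.3% to 56.9% and 47.6%. At Celsr2 an HMR in intron 1 went from 20.8% and 24.3% to 59.98% and 56.9%. Celsr3 lost 3 HMRs from every library between the stages, of which that in intron 2, of 36 CpGs, went from 16.5% and 11.5% to 47.0% and 46.7%. Prickle2 rose in coding exon 4 from 15.9% and 23.0% to 52.8% and 51.4%.

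Losses of at least 10 points were called at 2 HMRs, 1 at Prickle1 and 1 at Cfap126. Smaller differences with an adjusted p under 0.05 in both subtypes lay at other HMRs, such as that of Ror2 at chr13:53274795-53276054, which had 18.5% and 17.3% at P2 and 9.78% and 10.8% at P60 (Fisher's exact test, adjusted p of 9.40e-09 and 5.83e-05). In intron 1 of Prickle1, at chr15:93413223-93413501, in the same intron as the region that gained, the level fell from 24.4% (19.3 to 30.5) and 33.9% (28.1 to 40.3) to 7.76% (5.63 to 10.6) and 8.74% (6.55 to 11.6), with adjusted p of 4.29e-08 and 6.83e-15. None of the P2 and all 8 P60 libraries had an HMR there. Downstream of Cfap126, at chr1:170957067-170957158, 4 CpGs went from 16.5% (10.8 to 24.4) and 22.7% (16.3 to 30.6) to 2.56% (1.25 to 5.20) and 6.33% (3.81 to 10.4), with an HMR in 2 of the 8 P60 libraries. Upstream of Cfap126 an HMR rose from 11.2% and 12.9% to 26.6% and 24.1% (adjusted p of 3.50e-09 and 2.87e-05), and the other 5 HMRs in its window, that over its TSS included, were not called. Dvl1 and Dvl2 rose most outside their transcripts, to 56.5% and 59.0% at the HMR shared with Mxra8 and to 53.8% and 52.0% at an HMR 16841 bp downstream of Dvl2.

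Although the level at the TSS hardly moved, the HMR around it was called shorter at P60 in 19 of 44 genes. The length of the HMR that overlaps the TSS window was tested over libraries (two-sided exact permutation test, 4 P2 against 8 P60 libraries, Benjamini-Hochberg adjustment over 14874 genes). Of 44 genes tested, 19 were called (43.2%, beside 24.4% of all genes), all shorter at P60 (beside 22.9% shorter of all), and 24 had an unadjusted p under 0.05. The median difference was -211 bp over these genes and -83.2 bp over all. The TSS HMRs of these genes were also longer, with a median of mean lengths of 2444 bp beside 1656 bp over protein-coding genes, and the change relative to length was not tested. By role, 6 of 10 Frizzled genes, 4 of 5 co-receptor genes, 5 of 7 planar polarity genes, 4 of 18 ligand genes and 0 of 3 Dishevelled genes were called. For 18 of the 19 the permutation p was 0.00404, the smallest this design allows (adjusted p = 0.0215). That p arises only where the P2 and P60 libraries do not overlap, so their separation restates the call and adds nothing to it. For Ror1, whose groups overlapped, the permutation p was 0.0121 (adjusted p = 0.0496). Without any 1 of the 4 P2 libraries 0 of these genes had an adjusted p under 0.05, where the smallest p of this exact test is 0.0121, and without any 1 of the P60 libraries 18 were called. Whether same-numbered libraries of the 2 subtypes come from the same mice is not given in the labels. At P2 the X-chromosomal HMRs of same-numbered eYFP- and eYFP+ libraries did not match (92.5% and 13.0% present for replicate 1, 13.4% and 84.3% for replicate 2). With same-numbered libraries averaged, an alternative chosen after seeing the data, 2 P2 sets against 4 P60 sets cannot go below p = 0.133 in the exact permutation test, and 0 genes were called.

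**Figure D5:**
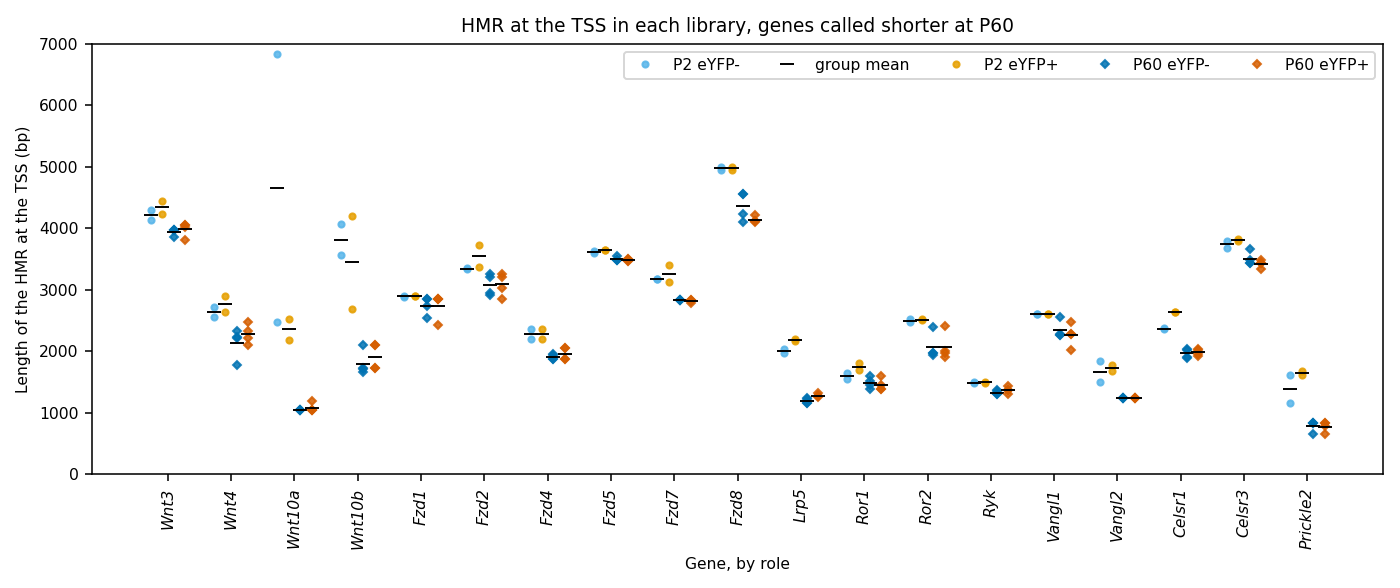
Length of the HMR at the TSS (y axis, bp) in each of the 12 libraries for the 19 genes called shorter at P60 (x axis), 1 point per library and a bar at each group mean. All P60 libraries (diamonds) lie below all P2 libraries (circles) except at Ror1, as the smallest possible p of the call requires. Wnt10a has 1 P2 library at 6837 bp.

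At Lrp5 the HMR measured 1962, 2031, 2202 and 2165 bp in the P2 libraries (eYFP- replicates 1 and 2, then eYFP+) and between 1153 and 1316 bp (median 1250 bp) in the P60 libraries, 855 bp shorter on average. At Vangl2 the P2 lengths were 1492, 1836, 1767 and 1677 bp, and each of the 8 P60 libraries gave 1232 bp. Prickle2 went from 1157, 1616, 1680 and 1616 bp to between 655 and 824 bp (median 824 bp). At these 3 genes, as at all those called except Ror1, the shortest P2 HMR was longer than the longest P60 HMR. Wnt10a had 2477, 6837, 2527 and 2182 bp at P2 and between 1043 and 1182 bp (median 1043 bp) at P60, and Wnt10b 3557, 4062, 4197 and 2690 bp against 1656 to 2096 bp (median 1724 bp). For Wnt10a, the P2 eYFP- library with 6837 bp stood apart from the other 3 P2 libraries. Wnt4 went from 2548, 2715, 2642 and 2895 bp to between 1773 and 2479 bp (median 2221 bp), a mean difference of -492 bp. Celsr1 went from 2355, 2378, 2641 and 2641 bp to between 1895 and 2031 bp (median 1990 bp). Fzd8, whose HMR was the longest of the Frizzled genes called, went from 4953, 5000, 4953 and 5000 bp to between 4106 and 4552 bp (median 4168 bp). Fzd7 went from 3172, 3172, 3118 and 3400 bp to between 2783 and 2840 bp (median 2828 bp). In contrast, Cfap126 had 465 to 662 bp at P2 and 276 to 733 bp at P60, and the groups overlapped. The remaining genes called (Wnt3, Fzd1, Fzd2, Fzd4, Fzd5, Ror1, Ror2, Ryk, Vangl1 and Celsr3) had mean differences between -434 and -136 bp.

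The same lengths were compared between the P60 subtypes. In 43 genes, 1 had an unadjusted p under 0.05 (beside 1.03% of all genes) and 0 an adjusted p under 0.05, as for all genes. This was Lrp5, at 1240, 1163, 1223 and 1153 bp in eYFP- and 1316, 1262, 1262 and 1260 bp in eYFP+ libraries, without overlap (two-sided exact permutation p = 0.029, the smallest that 4 against 4 libraries allow, adjusted p = 1.00). With the replicate number as a block the smallest possible p was 0.125. At P2, 2 against 2 libraries cannot go below p = 0.333 in an exact test, so no test was made.

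Genes of the pathway that are not among the 45 (52 genes of secreted modulators, receptor turnover and the inner pathway) had 357 HMRs tested. At P2, 3 were higher and 2 lower in eYFP+ cells (1.40%, beside 1.34% of all HMRs) and at P60 0 were called. Those at P2 were at Sost, Axin2, Fat4, Sfrp2 and Prickle3, the last of which lies on the X chromosome, and of which Axin2, a scaffold of beta-catenin turnover and a classical target of the pathway, had 15.7% in eYFP- and 31.1% in eYFP+ cells (Fisher's exact test, adjusted p = 0.0146). From P2 to P60, 100 were higher and 7 lower in eYFP- cells and 90 and 11 in eYFP+ cells, so that 28.0% and 25.2% were higher, beside 28.0% and 26.6% of all HMRs. Of 52 TSS windows, 2 were called in each subtype, beside 5.71% and 7.05% of all TSS windows. Rnf43, a ligase that removes Frizzled receptors, rose from 36.8% to 70.1% in eYFP- and from 35.2% to 67.4% in eYFP+ cells, and Dkk3, a member of a family of secreted Wnt antagonists, from 25.0% to 41.7% and from 26.0% to 42.0%.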

How the data were processed

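WGBS libraries of sorted beta cells (12 libraries) were analysed from the deposited tables. The authors trimmed reads (Trim Galore 0.6.6 and cutadapt 1.16, with SAMtools 1.5, per the labels), aligned them with abismal to the mm39 build, and derived with MethPipe the deposited read counts per CpG (libraries pooled, strands merged) and the HMR positions per pool and library, with versions not given in the sources used here. The deposited score per CpG and the lists of differing regions hold the authors' own comparisons and were not used. All CpG positions checked fell on a CG of mm39 (434618 positions).

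Reads were summed over TSS windows and merged HMRs with at least 3 covered CpGs and 20 reads in both pools, and tested with Fisher's exact test, two-sided. Per-library lengths were compared by exact permutation tests. The tests were run on simulated data with known changes first. Software was Python 3.11.15, with numpy 2.4.6, scipy 1.17.1, pandas 2.3.3, numba 0.67.0 and matplotlib 3.10.9. Gene models came from GENCODE vM39. Fisher's p-values reflect the read-counting error between pools only, and permutation p-values the spread between libraries of pooled mice.

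The members and lists were chosen with earlier results of these data known. Named regions are, for each comparison, the called TSS windows and the up to 10 called HMRs with the largest difference, and each gene's called HMR with the largest difference. Wnt4 and Cfap126 are described whatever their values. Same-numbered P60 libraries deviated together in the presence of HMRs (correlations of 0.153, 0.194, 0.288 and 0.136 for replicates 1 to 4), so the numbers were treated as pairs in the block. Alternatives covered depth minima, the difference needed, single CpG means, window sizes, HMR lengths and leaving out libraries.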

Additional observations from a re-analysis of the deposited data

Results flagged for a closer look

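The gain from P2 to P60 at the Ror2 intron 1 HMR differed between subtypes by 17.2 points, being larger in eYFP+ cells, which started lower at P2. This rests on pooled reads without replicate error, and the P2 eYFP+ reads that made the region an HMR also enter the difference.

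In the P60 groups of 4 libraries, 13 of 39 sets of TSS HMR lengths had 1 library far from the others by Dixon's criterion, and chance flags about 1 in 20. HMR ends lie on CpGs, so that lengths take few distinct values and sets with ties are flagged easily. In eYFP- libraries these were Wnt3 in replicate 2 (3863 bp, the others 3963 bp), Wnt10b in replicate 2 (2096 bp, the others 1656 to 1724 bp), Fzd5 in replicate 4 (3555 bp, the others 3490 bp), Fzd7 in replicate 2 (2840 bp, the others 2828 bp), Ror2 in replicate 3 (2387 bp, the others 1943 to 1970 bp), Vangl1 in replicate 3 (2559 bp, the others 2264 to 2282 bp) and Prickle2 in replicate 1 (655 bp, the others 824 bp). In eYFP+ libraries these were Wnt3 in replicate 3 (3808 bp, the others 4014 to 4054 bp), Wnt10a in replicate 3 (1182 bp, the others 1043 bp), Fzd1 in replicate 3 (2422 bp, the others 2848 to 2851 bp), Fzd8 in replicate 4 (4215 bp, the others 4106 to 4121 bp), Lrp5 in replicate 1 (1316 bp, the others 1260 to 1262 bp) and Cfap126 in replicate 3 (276 bp, the others 662 to 733 bp).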

How the results depend on the processing

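Of the counts and values recomputed under the alternatives, 78 kept their direction and side of the threshold (counts within 1.5 times), 17 moved and 1 lost its call. Within that tolerance, counts of HMRs called between stages were 155 (eYFP-) and 152 (eYFP+) with 50 kb each side and 83 and 78 with at least 15 points. Called HMRs between the P2 subtypes went from 2 to 0 with a difference of at least 15 points, to 1 with the mean of single CpG levels and to 1 with the gene body alone. TSS windows called between stages in eYFP- cells went from 1 to 0 with at least 15 points, to 0 with 1000 bp either side and to 2 with the TSS at the end of the gene record, and in eYFP+ cells from 0 to 1 with the latter. Counts of HMRs called between stages went from 109 to 72 (eYFP-) and from 105 to 69 (eYFP+) with the gene body alone, which holds fewer HMRs (179 tested). Leaving out 1 library gave between 0 and 18 genes called with a shorter TSS HMR: 18 without any 1 of the P60 libraries and 0 without any 1 of the 4 P2 libraries, where the smallest p is 0.0121 and the adjusted p missed the threshold. With same-numbered libraries averaged at each stage, chosen after seeing the data, 0 were called and the difference in HMR coverage was -1.70 points (exact permutation p = 0.133, the smallest 2 against 4 sets allow). Without P60 replicates 1 and 2, or 3 and 4, the count was 0, with a smallest p of 0.029. Without any 1 library, the fall in HMR coverage stayed between -1.77 and -1.57 points. With the replicate block the Lrp5 length call was lost (0 called, smallest p 0.125). Other subtype comparisons used pools, to which no block applies. Leaving out a P60 library from the comparison of P60 subtypes gave no value past a threshold, since p cannot go below 0.0571. Of the 22 comparisons of named HMRs, 21 kept their call with single CpG means. Pooled counts limit what can be said about the spread between mice, and 25 reads per CpG at P2 limit small regions.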
